A study of Rattus norvegicus with 6 samples.

Results

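The miR-34 and miR-449 family was followed through small RNA libraries of rat testis, 3 from animals labelled as having STZ-induced diabetes and 3 from animals labelled normal. Its members were taken by a rule on names, as the rows for miR-34a, miR-34b, miR-34c, miR-449a, miR-449b or miR-449c, and 10 of the 721 rows in the table met that rule. The table held 539 known miRNAs and 182 predicted ones. All rats were Sprague-Dawley, and testicular tissue was taken 8 weeks after streptozotocin (STZ), which is toxic to pancreatic beta cells. Per the study's methods the diabetic rats had first been fed a high-fat diet and kept a high blood glucose, while control rats were injected with citrate buffer. Whether the control rats also ate that diet was not given. The labels gave no age and no batch, and nothing stated that each library came from a separate rat, so the p-values below measure only the spread between these libraries.

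miRNAs are short RNAs that guide Argonaute proteins to mRNAs, mostly through the seed, the bases just after the 5′ end. Each is cut from a hairpin, whose left strand gives the 5p arm and right strand the 3p arm, and usually 1 of these strands is retained. The miR-34 and miR-449 miRNAs share a seed. In mammals miR-34b, miR-34c and the miR-449 cluster are abundant in multiciliated epithelia and in male germ cells from meiosis onwards, and mice lacking both clusters are infertile and have ciliary defects. miR-34a, made from a locus of its own, is best known as a target of p53 in many tissues.

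The sequences are shown first because the arms and seeds divide the family. They come from RefSeq with build GRCr8 and were matched by name, which worked for all 10 members, and the prefix rno marks the rat. The 5p arms, with the seed (bases 2 to 8) in capitals, were
rno-miR-34a-5p: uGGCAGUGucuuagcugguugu
rno-miR-34b-5p: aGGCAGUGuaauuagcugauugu
rno-miR-34c-5p: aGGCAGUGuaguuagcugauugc
rno-miR-449a-5p: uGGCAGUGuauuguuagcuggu
rno-miR-449c-5p: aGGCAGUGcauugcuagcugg
All 5 carried the seed GGCAGUG. Of the 492 known miRNAs of the table with a sequence of the same name, 0 others carried it.

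The 3p arms did not share 1 seed and are shown with the same bases in capitals.
rno-miR-34b-3p: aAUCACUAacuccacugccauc
rno-miR-34c-3p: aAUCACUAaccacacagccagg
rno-miR-34a-3p: aAUCAGCAaguauacugcccua
rno-miR-449a-3p: cAGCUAACaugcaacugcucuc
rno-miR-449c-3p: uAGAACUUcgucccaac
miR-34b-3p and miR-34c-3p had a seed in common, and each of the other 3p arms had its own. Among the 492 known miRNAs with a matched sequence, again 0 others carried any of these seeds.

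Closeness of sequence also bears on how reads can be told apart. miR-34b-5p and miR-34c-5p were identical at 21 of 23 positions, counted from 1 at the 5′ end. They differed by A11G and U23C, with the base of miR-34b first. Their 3p arms were identical at 17 of 22 positions and differed by U11C, C12A, U16A, U21G and C22G. How reads that match several miRNAs were shared out was not given in the sources used here. The level of miR-34b-5p, which lies far below that of miR-34c-5p, is therefore uncertain to the extent that miR-34c-5p reads were assigned to it.

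The hairpins of miR-34b and miR-34c are printed with both mature arms in capitals, since these neighbours differed in which arm had more reads. In RefSeq build GRCr8, which is not a build named for the deposited table, Mir34c lay at chr8:60306091-60306167 and Mir34b at chr8:60306609-60306692, both on the minus strand and 441 bases apart. Both fell within the span of Hoatz, between the coding genes Layn and Btg4.
Mir34b: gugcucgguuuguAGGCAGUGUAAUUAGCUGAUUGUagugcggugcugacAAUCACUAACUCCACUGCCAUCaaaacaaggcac
Mir34c: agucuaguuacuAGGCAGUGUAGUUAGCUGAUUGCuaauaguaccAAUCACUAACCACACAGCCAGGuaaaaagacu

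The miR-449 hairpins lay on the plus strand of chromosome 2, Mir449c at chr2:46402375-46402473 and Mir449a at chr2:46403910-46404000, with 1436 bases between them. They stood between Mcidas, a regulator of multiciliated cell differentiation, and Gpx8. Mir34a lay apart at chr5:165815952-165816053 on the plus strand. The hairpin of miR-449c is shown for the place of its 3p entry.
Mir449c: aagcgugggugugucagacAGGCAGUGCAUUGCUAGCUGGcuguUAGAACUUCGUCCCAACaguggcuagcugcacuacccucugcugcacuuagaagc
That entry, 17 bases long, began 4 bases after the 5p arm ended and left 38 bases of hairpin behind it. In the other hairpins from 10 to 22 bases separated the arms and from 10 to 17 followed the 3p arm.

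Values in the table were CPM, in which each library's miRNA reads are scaled to the same sum, and whole reads could be recovered from them. The libraries held from 305476 to 549446 reads over all entries. A single read was thus worth from 1.82 to 3.27 CPM, and 3 reads were taken as the smallest measurable count. Libraries of 1 group differed from each other beyond counting noise, with a chi-square per degree of freedom between 6.47 and 20.0. All 6 were used as separate samples, though this spread cannot show that each came from a separate rat. As a check of the tissue, 23 miRNAs of an X-linked cluster known from testis germ cells together took between 8.55% and 10.3% of reads. miR-202-5p and miR-202-3p, taken here as the Sertoli cell list though also ascribed to germ cells, summed to between 3262 and 4467 CPM.

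The family took between 30.9% and 35.9% of the miRNA reads in these testes, and most of that was miR-34c-5p. The family's share of reads was 33.4%, 33.7% and 31.5% in diabetic replicates 1, 2 and 3, and 34.4%, 30.9% and 35.9% in normal replicates 1, 2 and 3. Counting error was small beside these differences, with 95% Wilson intervals at most 0.334 percentage points wide. Such intervals cover counting error only, since no molecular identifiers were stated. The diabetic values lay inside the range of the normal ones.

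miR-34c-5p was the most abundant of the 721 entries, at a mean of 291471 CPM over the 6 libraries. The next, miR-143-3p of contractile cells, had a mean of 84233 CPM. miR-34c-5p held 87.6% of all family reads, and miR-449a-5p, sixth in abundance, held 9.38%. Reads with the shared seed GGCAGUG, summed over the 5p arms, took between 30.3% and 35.3% of a library, whereas the 3p arms together took between 0.529% and 0.638%.

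**Figure D1:**
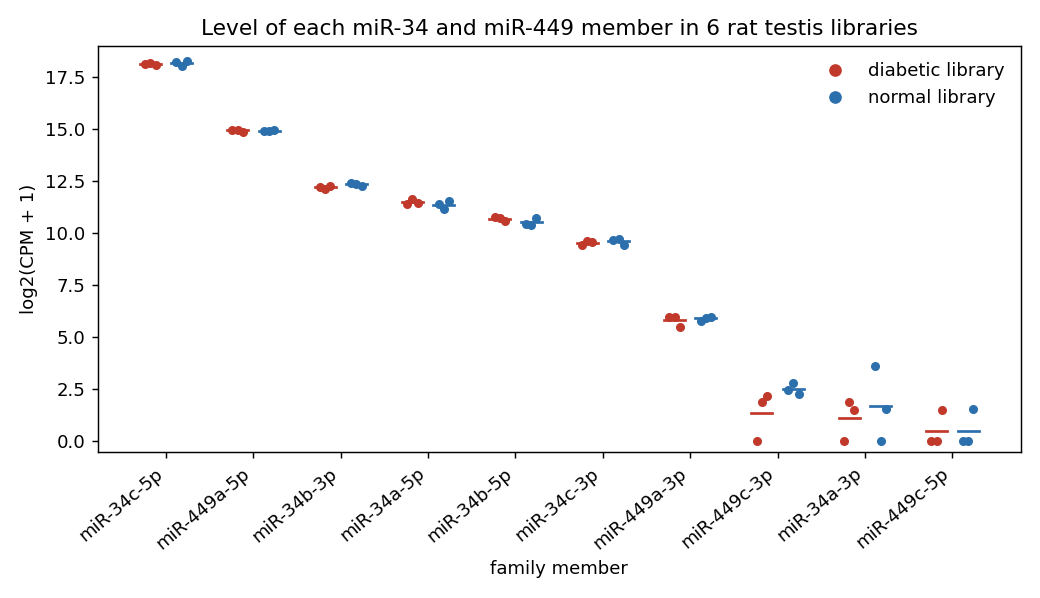
Level of each family member, as log2(CPM + 1) on the vertical axis, in 3 diabetic (red) and 3 normal (blue) libraries; points are libraries and short lines are group means. The members fall from miR-34c-5p at the left to 3 scarce entries at the right, and the groups lie close together for every member with 10 reads or more in each library.

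Members were spread over a range from 291471 CPM down to under 1 CPM. In order of mean level miR-34c-5p was followed by miR-449a-5p (31284 CPM), miR-34b-3p (4986 CPM), miR-34a-5p (2793 CPM), miR-34b-5p (1568 CPM), miR-34c-3p (769 CPM) and miR-449a-3p (57.5 CPM). Between each of these neighbours the ranges over the 6 libraries did not overlap, so the order was the same in 6 of 6 libraries. These are levels of mature miRNAs of 17 to 23 bases, so no correction for length was made. No calibration of reads to molecules was stated, so ranks and ratios between different sequences, also between arms, describe reads.

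The last 3 members were at or near the limit of detection and could not be ordered. For miR-449c-3p the diabetic libraries yielded 0, 1 and 2 reads and the normal ones 2, 3 and 2. miR-34a-3p had 0, 1 and 1 reads against 5, 0 and 1. miR-449c-5p, which carries the family seed, had 1 read in diabetic replicate 3 and 1 in normal replicate 3. It had 0 reads in the other libraries, which allows a level of up to 9.82 CPM in diabetic replicate 1, the shallowest. No fold is given for these members in the main comparison. Differences of miR-449c-3p and miR-34a-3p under other settings, cited in the closing section, rest on these few reads. No row of the table was named miR-449b.

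Some members were steadier across libraries than others. Within groups, miR-449a-5p varied with a coefficient of variation of 2.97%, the second smallest among 257 miRNAs that reached 10 reads in each library, whose median was 14.3%. miR-34b-3p varied by 5.03% and miR-34c-5p by 6.51%. Counting alone would give miR-34c-5p a variation of 0.277%, so its spread between libraries was not set by depth. For miR-449a-3p the reverse held, with 14.3% measured and 19.8% from counting.

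Arm use divided the hairpins sharply. Reads of miR-34c and miR-449a came almost wholly from the 5p arm, and those of miR-34b mostly from the 3p arm. For miR-34c, 423, 373 and 354 reads of the 5p arm were found per read of the 3p arm in the diabetic libraries and 367, 322 and 453 in the normal libraries. For miR-449a the ratios were 512, 523 and 691 in the diabetic libraries and 560.0, 510 and 512 in the normal ones. For miR-34b it was the 3p arm that exceeded the 5p arm, 2.73, 2.64 and 3.24 times in the diabetic libraries and 3.88, 3.88 and 2.98 times in the normal ones. The direction was the same in 6 of 6 libraries for all 3 hairpins.

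Set beside other miRNAs with enough reads on both arms, the ratios of miR-34c and miR-449a lay at the 5p end of the range. That of miR-34b lay inside it. Of the 178 miRNAs with both arms listed, 63 had a mean of at least 10 reads for each arm. The 5p arm was higher in all 6 libraries for 28 of these, the 3p arm for 25, and 10 were mixed. Ranked from the most 3p-biased to the most 5p-biased of these 63, miR-34b came 15th, miR-34c 62nd and miR-449a 63rd. Hairpins with 1 scarce arm were left out of this ranking, however strong their bias. miR-34a was such a case, with 7483 reads of the 5p arm and 8 of the 3p arm over the 6 libraries. miR-34a-3p and the miR-449c arms had too few reads for a ratio.

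**Figure D2:**
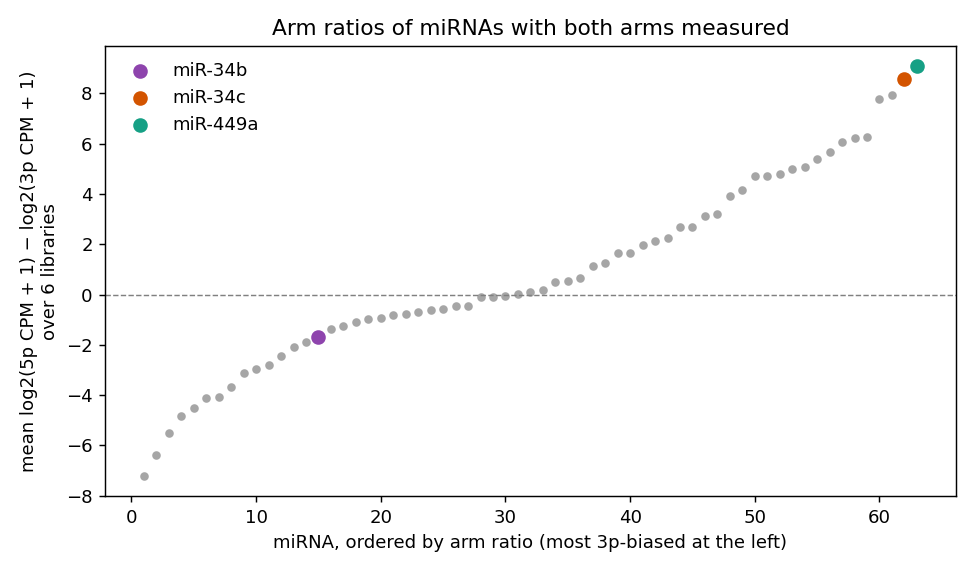
Arm ratio of the 63 miRNAs with both arms measured, as the mean over 6 libraries of log2(5p CPM + 1) minus log2(3p CPM + 1), with miRNAs ordered along the horizontal axis from most 3p-biased to most 5p-biased. miR-34c (orange) and miR-449a (green) stand at the 5p end, at 8.57 and 9.07, and miR-34b (purple) lies on the 3p side of 0, at -1.67.

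The central comparison asked whether diabetes altered the family. In a limma fit over all 578 entries that passed the filter, 0 of the 9 members tested had an adjusted p under 0.05, against a background of 0% of all entries. At an unadjusted p under 0.05 it was again 0 of 9, where 8.82% of all entries passed. By the count-based tests on recovered reads, edgeR and DESeq2, 0 members passed either threshold. Adjusted p-values of the members ran from 0.724 to 0.941. miR-449c-5p, with 2 reads in all, was not tested. Since these are bulk libraries, fewer cells of a type and less RNA per cell cannot be told apart.

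For members with enough reads the limma fit gave an interval for the change. Of the 9 tested, 7 had at least 10 reads in every library, 3 with a mean difference above 0 and 4 below. Their differences in log2(CPM + 1), diabetic minus normal, ran from -0.15 to 0.16 with a median of -0.04, and the median over all entries tested was 0.0046. For the 6 with at least 100 reads in every library, all 95% intervals of this fit lay between 0.785-fold and 1.33-fold. These limits depend on the setting. Upper-quartile factors moved the difference of miR-34b-3p from -0.15 to -0.26. Without the abundance trend of the limma fit its difference was unchanged, but its unadjusted p (limma) rose from 0.12 to 0.357. Intervals under other settings are not given here.

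**Figure D3:**
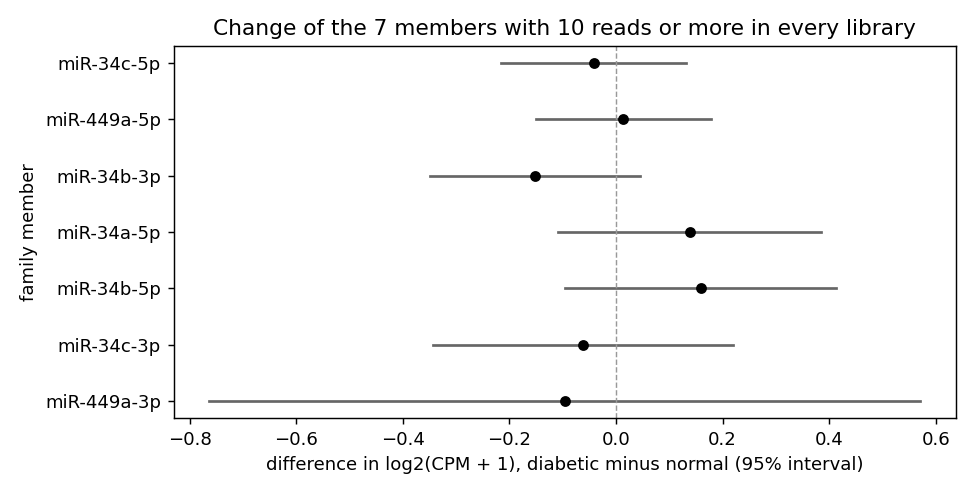
Difference between diabetic and normal libraries in log2(CPM + 1) for the 7 members that reached 10 reads in each library, with points for the limma estimate and bars for its 95% interval. All intervals cross 0, and the widest is that of miR-449a-3p, from -0.76 to 0.57.

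miR-34c-5p had 29.2%, 29.5% and 27.4% of reads in the diabetic libraries and 30.3%, 26.8% and 31.7% in the normal ones. The diabetic libraries sat between the lowest and highest normal library. The difference was -0.04 ± 0.08 (SE), with an interval from -0.22 to 0.13 (limma adjusted p = 0.846). It was 0.009 without normal replicate 3, which had the highest share, -0.11 without normal replicate 2 and -0.15 with upper-quartile factors.

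miR-449a-5p, the other abundant carrier of the seed, was at 31829, 32302 and 30178 CPM in the diabetic and 30461, 31082.5 and 31851 CPM in the normal libraries. The groups overlapped almost fully. The difference was 0.01 ± 0.08 (SE), with an interval from -0.15 to 0.18 (limma adjusted p = 0.941), and it was below 0 with DESeq2, TMM and upper-quartile factors and with both count-based tests.

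miR-34b-3p was the one well measured member whose groups did not overlap. It was at 4796, 4435 and 4941 CPM in the diabetic and 5485, 5244 and 5014 CPM in the normal libraries, each normal library above each diabetic one. The gap between the nearest libraries was small, 4941 against 5014 CPM. The difference was -0.15 ± 0.09 (SE), with an interval from -0.35 to 0.04 (limma adjusted p = 0.724, exact permutation p = 0.1, the smallest that 3 against 3 libraries can give). The 3p arms summed over the family, of which miR-34b-3p made up most, took 0.555%, 0.529% and 0.577% of diabetic and 0.638%, 0.615% and 0.578% of normal reads, again without overlap by a narrow gap (exact permutation p = 0.1). Groups failed to overlap for 2 of the 9 members tested and for 14.9% of all entries. The other member was miR-449c-3p, at no more than 3 reads. Its groups were apart only by 3.6 against 3.8 CPM, from 2 reads each in diabetic replicate 3 and normal replicate 3. The unadjusted p of miR-34b-3p was under 0.05 with upper-quartile factors (0.0221) and TMM factors (0.0445), while its adjusted p stayed at 0.372 or above in every setting tried.

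The mean of its partner arm lay on the other side of 0, within the spread. miR-34b-5p was at 1755, 1677 and 1523 CPM in the diabetic and 1414, 1352 and 1684.5 CPM in the normal libraries, with normal replicate 3 inside the diabetic range. The difference was 0.16 ± 0.12 (SE), with an interval from -0.10 to 0.41 (limma adjusted p = 0.774). It was 0.10 without normal replicate 2, 0.25 without normal replicate 3 and 0.05 with upper-quartile factors.

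miR-34a-5p, from a separate locus, was at 2720, 3252 and 2799 CPM in the diabetic and 2713, 2320 and 2950 CPM in the normal libraries. The groups overlapped, with diabetic replicate 2 highest and normal replicate 2 lowest. The difference was 0.14 ± 0.12 (SE), with an interval from -0.11 to 0.38 (limma adjusted p = 0.795). It was 0.06 without diabetic replicate 2, 0.04 without normal replicate 2, 0.22 without normal replicate 3 and 0.03 with upper-quartile factors.

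The scarcer 3p arms overlapped between the groups. miR-34c-3p was at 691, 790.2 and 775 CPM in the diabetic and 825, 834 and 699.8 CPM in the normal libraries, a difference of -0.06 ± 0.13 (SE; limma adjusted p = 0.846). miR-449a-3p, from 19, 23 and 24 reads against 24, 30 and 33, was at 62.2, 61.8 and 43.7 CPM in the diabetic and 54.4, 60.9 and 62.2 CPM in the normal libraries. Its difference was -0.10 ± 0.31 (SE; limma adjusted p = 0.883). Of miR-449c-3p and miR-34a-3p, both listed above by their reads, the limma adjusted p-values were 0.774 and 0.842.

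Ratios between members of 1 library are free of the library total, and 8 were compared between the groups. Their exact permutation p-values cannot fall below 0.1, and adjusted over the 8 by the Benjamini-Hochberg method they ran from 0.4 to 0.9, so none passed 0.05. Of these ratios, those of miR-34a-5p to miR-34c-5p and of miR-34b-3p to miR-34c-3p were added later, once the values of these members had been tabulated.

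In 2 of the 8 ratios the groups did not overlap, and among single entries tested 14.9% did not overlap. Both ratios were taken to miR-34c-5p, so they are not independent of each other. miR-34c-5p outnumbered miR-34b-5p 166, 176 and 180.2 times in the diabetic libraries and 214, 199 and 188 times in the normal ones, so that miR-34b-5p was relatively higher in each diabetic library. On the log2 scale the ratio of miR-34b-5p to miR-34c-5p averaged -7.44 ± 0.06 with diabetes and -7.64 ± 0.09 without (SD, n = 3 per group), a difference of 0.20 (exact permutation p = 0.1, adjusted p = 0.4). miR-34c-5p outnumbered miR-34a-5p 107.3, 90.6 and 98.1 times in the diabetic libraries and 111.6, 115.7 and 107.4 times in the normal ones. Diabetic replicate 1 and normal replicate 3 were all but equal there, and the log2 difference was 0.18 (exact permutation p = 0.1, adjusted p = 0.4).

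The other ratios overlapped between the groups. That of miR-449a-5p to miR-34c-5p was 0.109, 0.110 and 0.110 in the diabetic libraries and 0.101, 0.116 and 0.101 in the normal ones (exact permutation p = 0.4). The 3 diabetic values lay close together and between the normal ones. The ratio of miR-34b-3p to miR-34c-3p, which share their 3p seed, ran from 5.61 to 7.16 over the 6 libraries (exact permutation p = 0.5).

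Arm ratios gave no difference past a threshold. In a limma fit of the 5p to 3p ratio over the 63 miRNAs, 0% had an adjusted p under 0.05 and 4.76% an unadjusted p under 0.05, and 0 of the 3 family hairpins passed either. The log2 arm ratio of miR-34b was higher by 0.31 ± 0.16 (SE) in diabetic libraries, with an interval from -0.02 to 0.64 and an adjusted p of 0.652. The 3p arm took 73.2%, 72.6% and 76.4% of miR-34b reads in the diabetic and 79.5%, 79.5% and 74.9% in the normal libraries, so normal replicate 3 lay among the diabetic ones (exact permutation p = 0.2). The interval for miR-34c ran from -0.29 to 0.33 and that for miR-449a from -0.25 to 0.47.

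**Figure D4:**
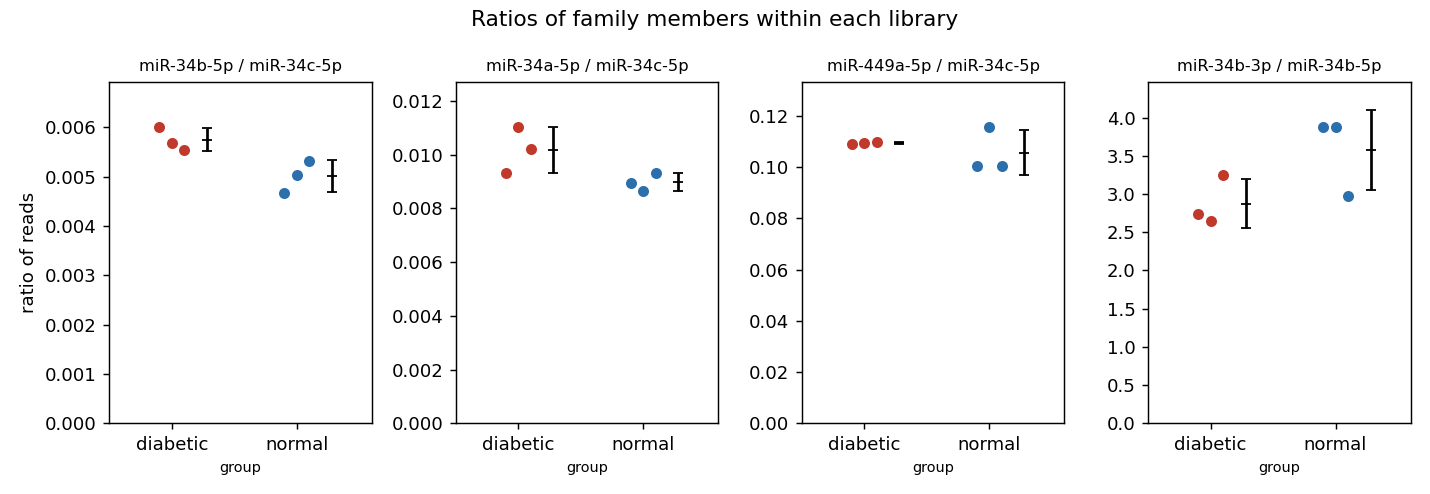
Ratios of reads between family members within each library, in 4 panels with an axis of their own from 0, for diabetic (red) and normal (blue) libraries; black marks are the mean and SD of 3 libraries. The groups do not overlap for miR-34b-5p to miR-34c-5p and, by a hair, for miR-34a-5p to miR-34c-5p, and they overlap for miR-449a-5p to miR-34c-5p and for the miR-34b arms.

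The family was also set against miRNAs of other testis cells. The X-linked germ-cell cluster took 9.52%, 9.37% and 10.3% of diabetic reads and 8.55%, 8.88% and 8.81% of normal reads, higher in each diabetic library (exact permutation p = 0.1). Per read of that cluster 3.50, 3.60 and 3.07 family reads were found with diabetes and 4.02, 3.48 and 4.07 without, and the groups overlapped (exact permutation p = 0.3). Of the 22 cluster members tested, 15 were above and 7 below 0, with a median difference of 0.06. An adjusted p under 0.05 was found for 0 of them and an unadjusted one for 3 (limma). Of all 578 entries, 8.82% had an unadjusted p under 0.05.

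Summed levels of 3 other marker lists were also higher in each diabetic library. The Sertoli cell list ran from 4102 to 4467 CPM in diabetic and from 3262 to 3693 CPM in normal libraries, with 1 of its 2 miRNAs above 0. The spermatogonial miR-221-3p and miR-222-3p summed to between 1436 and 1656 CPM in diabetic and between 1183 and 1250.5 CPM in normal libraries, both above 0. The endothelial miR-126a arms ran from 11722 to 13783 CPM in diabetic and from 8662 to 11086 CPM in normal libraries, both above 0. Each of these 3 sums, like that of the X-linked cluster, did not overlap between the groups (exact permutation p = 0.1). Among single entries tested, 14.9% did not overlap.

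Lists of contractile cells, from 85959 to 96015 CPM against 79267 to 97409 CPM, and of blood and immune cells, from 1123 to 1394.5 CPM against 1242 to 1455.5 CPM, overlapped. In the contractile list 2 of 4 miRNAs were above 0 and in the blood list 2 of 7. No listed marker was at 0 in all libraries, and 0 in these 5 lists had an adjusted p under 0.05 (limma). At an unadjusted p under 0.05 (limma), 1 miRNA passed in each list except the contractile one, where 0 did. Those above 0 were miR-221-3p, miR-202-5p and miR-126a-3p, and miR-142-3p was below 0. Of all entries, 8.82% passed. The part of these lists in the values of the family was not tested.

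The miRNAs whose course over the 6 libraries lay closest to that of miR-34c-5p were sought among those same 257. Likeness was the root mean square difference between centred log2(CPM + 1) values, smaller being more alike. miR-30b-5p was closest at 0.05, then miR-449a-5p at 0.07 and miR-25-3p at 0.07. Of the remaining members miR-34a-5p came 19th, miR-34b-5p 21st, miR-34b-3p 26th, miR-34c-3p 60th and miR-449a-3p 66th. This is a description over 6 libraries, in which miRNAs of little spread lie close to one another by construction.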

How the data were processed

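Small RNA from testis was sequenced in 6 libraries, grouped by GEO's labels. Per the study's methods the authors read single ends, removed adaptors, counted small RNAs, annotated known miRNAs by miRBase and expressed them as CPM. The deposited table holds those CPM values rounded to 1 decimal under headings that say TPM. The submitters' processing notes name Bowtie 0.12.2, HISAT2 2.0, StringTie 1.3.0 and the mouse build mm8 without roles. The labels give the tissue as testis, but their extraction text describes poly(A) mRNA of an adipose type, which matches neither that tissue nor small RNA and was not followed.

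Whole reads were recovered by finding the smallest library total that turned each CPM value into whole reads to within 0.05 CPM and equalled their sum, which held for 100% of values. The main test was limma 3.58.1 (eBayes with trend, R 4.3.3) on log2(CPM + 1), a scale that understates changes of scarce miRNAs, for entries reaching 1 CPM in 3 libraries or more, with Benjamini-Hochberg adjustment over all 578. Arm ratios used the same fit over 63 pairs with the mean abundance of both arms as trend. Single values were compared with two-sided exact permutation tests. The steps were tested on simulated data. Alternatives included edgeR 4.0.16 and DESeq2 1.42.0 on recovered reads. Every member was named, with other miRNAs of equal seed, the 3 of closest profile and the marker lists. The rule for members reads names only, but that rule, the lists and all comparisons were chosen with earlier results of these data known. Of the known miRNAs, 492 of 539 matched a RefSeq sequence by name.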

Additional observations from a re-analysis of the deposited data

How the results depend on the processing

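For the 9 members tested, the count with an adjusted p under 0.05 was 0 in all 12 other settings and in the 6 fits that each left out a library. The count with an unadjusted p under 0.05 became 1 when libraries were scaled by upper-quartile factors and 1 by TMM factors, in both cases miR-34b-3p, and was 0 in the others. Upper-quartile factors moved the median of all entries by about 0.1, from 0.0046 to -0.10, and TMM factors to -0.04, so every member moved down with them. Of 106 differences under other settings, 6 changed sign, all of miR-449a-5p, a value near 0. It was -0.0935 by upper-quartile scaling, -0.0366 by TMM, -0.0184 by DESeq2 size factors, -0.0059 with the family taken out of the total, -0.0147 with edgeR and -0.0188 with the DESeq2 Wald test. Leaving out a library turned the sign of 5 of 54. It ranged from -0.0062 to 0.0429 for miR-449a-5p, from -0.1102 to 0.009 for miR-34c-5p, from -0.1811 to 0.0688 for miR-449a-3p and from -1.454 to 0.3563 for miR-34a-3p, whose sign rests on the 5 reads of normal replicate 1. The difference in family share, -0.88 percentage points, ranged from -2.28 to 0.203 and was above 0 only without normal replicate 3. The log2 arm ratio difference ranged from -0.0929 to 0.1532 for miR-34c, below 0 without diabetic replicate 1 or normal replicate 2, and from -0.0269 to 0.1896 for miR-449a, below 0 without diabetic replicate 3. For these sign changes the cause was not tested. The arm ratio of miR-34b and the 5 ratios between members or with the X-linked cluster kept their sign in every alternative run for them. So did the other 5 members tested, except that the difference of miR-449c-3p became 0 when libraries were thinned to the smallest.

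Nothing stated that equal replicate numbers mark a pair, and the deviations of same-numbered libraries correlated at 0.00648, -0.0688 and -0.0894 over 257 miRNAs. With the replicate block 0 of the 9 members passed either threshold, and the smallest p of the ratios was 0.25 (exact permutation within pairs, the smallest it can give). Depth limits miR-449c-3p, miR-34a-3p and miR-449c-5p, with at most 5 reads in any library.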
